A study of Mus musculus with 9 samples.

Results

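Glomeruli of BTBR ob/ob mice fed enarodustat were compared with glomeruli of BTBR ob/ob mice fed vehicle, in 6 of the 9 samples of the study. The 2 groups were taken by their labels, 3 enarodustat samples against 3 vehicle samples, and all probes other than controls were used. All mice were male and 22 weeks old. They received vehicle or enarodustat in the food for 18 weeks, and the dose is not stated in the labels. Both groups carry ob/ob, the mutation that removes functional leptin, so that the animals overeat, become obese and, on the BTBR background, develop type 2 diabetes with kidney disease. The remaining 3 samples are BTBR wild-type mice on vehicle, and their levels are given beside some genes for context only. Glomeruli were isolated with Dynabeads, magnetic particles that lodge in glomerular capillaries, and total RNA was hybridised to one-colour Agilent arrays. The labels do not say whether a sample is 1 mouse or a pool, so p-values measure the spread between these samples.

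Enarodustat inhibits the prolyl hydroxylases (Egln1, Egln2 and Egln3) that mark the alpha subunits of hypoxia-inducible factor (HIF) for degradation. With these enzymes inhibited, HIF is stable at normal oxygen and switches on genes of glycolysis, lactate export, mitophagy, iron uptake and, in specialised kidney cells, erythropoietin. The drug acts on the HIF protein, so its effect on RNA is read from the target genes and not from the HIF genes. The glomerulus is the filter of the kidney, made of podocytes, a fenestrated capillary endothelium and mesangial cells inside a parietal epithelium. In diabetic glomeruli podocytes are lost, matrix accumulates and macrophages enter, recruited by chemokines such as Ccl2.

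Levels below are on the log2 scale, with 0 at the 75th percentile of the array's signal, and differences are enarodustat minus vehicle ± SE of a limma fit to all 9 arrays. The arrays correlated at 0.985 to 0.989 among the vehicle group, 0.983 to 0.991 among the enarodustat group and 0.972 to 0.987 between them, over probes. Of the probes, 62.27% to 67.77% were well above background in the 6 arrays. Enarodustat replicate 3 was on another slide and in another scan than the other 8 arrays. The podocyte marker Synpo (synaptopodin, 5.11 to 5.83), the endothelial marker Emcn (6.91 to 7.11) and the mesangial marker Itga8 (5.67 to 6.48) were well above background on all 6 arrays. Tubule RNA was present as well and was uneven. The median level of 33 proximal tubule markers was -0.46, -0.11 and -2.49 in vehicle replicates 1 to 3 and -0.47, 2.08 and -0.42 in enarodustat replicates 1 to 3. The median of 17 distal nephron markers was -2.57, -0.27 and 1.47 in vehicle and 1.37, 2.33 and 0.95 in enarodustat.

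No feature passed an adjusted p of 0.05 in limma (0 of 24166, 0%), and the smallest adjusted p was 0.204. At an unadjusted p under 0.05 there were 1695 features (7.01%), of which 828 (3.43%) were higher and 867 (3.59%) lower with enarodustat. With the array median in place of the 75th percentile as the scale, that split was 638 higher and 1173 lower. The 3 enarodustat arrays all lay above the 3 vehicle arrays for 1574 features (6.51%) and all below for 2291 (9.48%), 16% in all. Differences of at least 2-fold ran mostly upward, with 596 features higher and 107 lower, and 279 and 63 of these had an unadjusted p under 0.05. By sign alone, 10813 of the 24166 features were higher and 13353 lower with enarodustat. The median SE over all features was 0.17 on the log2 scale. All single genes below are therefore given with values, and none of them passed the adjusted threshold. Without vehicle replicate 3 and enarodustat replicate 2, which had the lowest and the highest proximal tubule markers, 1028 features had an unadjusted p under 0.05 (none passed the adjusted threshold).

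**Figure D1:**
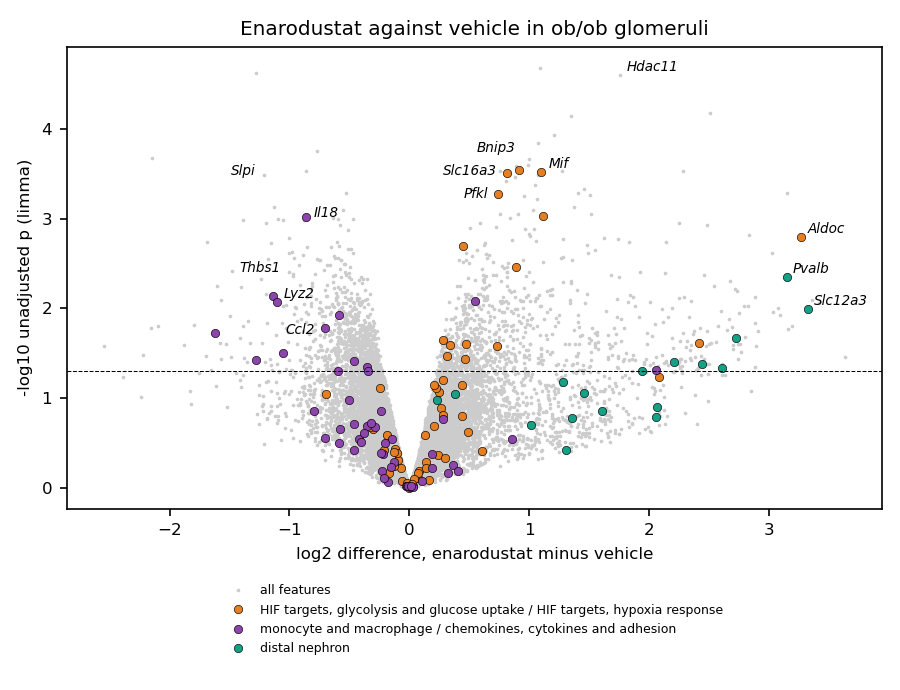
Each point is 1 of 24166 features, with the log2 difference (enarodustat minus vehicle, ob/ob glomeruli) on the horizontal axis and -log10 of the unadjusted limma p on the vertical axis. The dashed line marks the unadjusted threshold of 0.05. HIF target genes (orange) such as Bnip3, Mif and Slc16a3 lie at the top right, genes of macrophages, chemokines and adhesion (purple) such as Il18 lie mostly to the left, and distal nephron genes (green) all lie to the right.

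Among HIF target genes, those of glycolysis and lactate export were higher with enarodustat as a group of values, and most genes of the HIF pathway itself had smaller differences. Slc16a3, which encodes the lactate exporter MCT4, had levels of -0.34, -0.40 and -0.17 in vehicle replicates 1 to 3 and 0.35, 0.72 and 0.48 in enarodustat replicates 1 to 3. All enarodustat values lay above all vehicle values (difference 0.82 ± 0.14, 1.76-fold, unadjusted p = 0.000312, adjusted p = 0.377). Pfkl, the liver-type phosphofructokinase of the committed step of glycolysis, had levels of 0.26, -0.04 and -0.04 in vehicle and 0.68, 0.87 and 0.85 in enarodustat. Its difference was 0.74 ± 0.14 (1.67-fold, unadjusted p = 0.000529, adjusted p = 0.418), and its 2 probes gave 0.74 and 1.01. Bnip3, a mitophagy receptor of the outer mitochondrial membrane, had levels of 2.74, 2.37 and 2.62 in vehicle and 3.26, 3.68 and 3.55 in enarodustat. Again the groups were apart (difference 0.92 ± 0.16, 1.89-fold, unadjusted p = 0.00029, adjusted p = 0.377). Mif, a cytokine gene and a known HIF target, had nearly equal levels in vehicle (3.65, 3.66 and 3.68) and was higher on every enarodustat array (4.46, 5.21 and 4.61). Its difference was 1.097 ± 0.19 (2.14-fold, unadjusted p = 0.000301, adjusted p = 0.377).

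The upstream sequences of these 4 genes are shown because HIF binds DNA at a short core, and the 4 had the smallest p values among the HIF targets tested. They are the 250 bases before the gene start in the RefSeq annotation of GRCm38.p6, read 5′ to 3′ on the strand of the gene. They cover chr7:138909507-138909756 (minus strand) for Bnip3, chr10:75860278-75860527 (minus) for Mif, chr11:120948817-120949066 (plus) for Slc16a3 and chr10:78009808-78010057 (minus) for Pfkl. Capitals mark ACGTG or GCGTG on either strand.
Bnip3: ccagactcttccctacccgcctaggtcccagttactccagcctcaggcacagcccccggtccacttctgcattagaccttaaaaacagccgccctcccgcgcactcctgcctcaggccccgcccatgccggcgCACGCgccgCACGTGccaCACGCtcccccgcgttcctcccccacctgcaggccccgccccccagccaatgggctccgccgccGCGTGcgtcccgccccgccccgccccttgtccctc
Mif: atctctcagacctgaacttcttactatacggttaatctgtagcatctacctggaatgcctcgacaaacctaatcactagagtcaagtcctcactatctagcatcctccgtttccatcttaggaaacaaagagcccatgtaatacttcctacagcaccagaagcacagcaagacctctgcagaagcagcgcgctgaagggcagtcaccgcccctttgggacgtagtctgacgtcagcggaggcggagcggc
Slc16a3: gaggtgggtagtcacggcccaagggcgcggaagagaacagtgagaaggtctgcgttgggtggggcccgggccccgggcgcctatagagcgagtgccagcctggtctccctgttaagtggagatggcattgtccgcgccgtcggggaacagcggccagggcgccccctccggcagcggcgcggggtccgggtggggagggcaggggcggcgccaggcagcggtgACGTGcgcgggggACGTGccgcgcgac
Pfkl: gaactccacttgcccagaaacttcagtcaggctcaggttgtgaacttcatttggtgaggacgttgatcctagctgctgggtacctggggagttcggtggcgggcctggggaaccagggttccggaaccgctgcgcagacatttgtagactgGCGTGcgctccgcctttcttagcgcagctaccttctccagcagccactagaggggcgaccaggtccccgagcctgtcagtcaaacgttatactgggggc

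The Bnip3 window held 5 matches, 2 of ACGTG and 3 of GCGTG, and the 2 of ACGTG overlap on opposite strands in the palindrome CACGTG. Slc16a3 held 2 matches of ACGTG near the gene start, Pfkl held 1 of GCGTG, and the Mif window held 0. Over all 27025 genes with a window, 38.6% held at least 1 match. Of 60 tested genes of the 2 HIF target lists, 46 had a window, and 36 of these (78.3%) held a match. Among them, 9 of the 14 genes that were higher at an unadjusted p under 0.05 held one (64.3%), and 27 of the 32 with a larger p (84.4%). A match is a run of letters and not a measured binding site.

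Of 22 HIF targets of glycolysis and glucose uptake, 21 were tested, and Hk2, a hexokinase, was too dim. None passed the adjusted threshold. Of the 21, 19 were higher and 2 lower, 10 had an unadjusted p under 0.05 and all of these were higher, against 3.43% of all features. The groups did not overlap for 10, all higher, against 6.51% of all features. The median difference of the list was 0.28, beside -0.03 over all features. The groups were apart for enzymes at several steps of the pathway, but not at all of them. Gpi1 (glucose-6-phosphate isomerase) had levels of 6.11, 6.08 and 6.22 in vehicle and 6.51, 6.70 and 6.54 in enarodustat (difference 0.45 ± 0.10, unadjusted p = 0.00203). Aldoa (aldolase A) was at 7.27 to 7.46 against 7.54 to 7.71, Tpi1 at 3.91 to 4.16 against 4.29 to 4.80, Pgk1 at 5.83 to 6.03 against 6.08 to 6.46 and Eno1 at 5.34 to 5.55 against 5.58 to 5.93. Their differences were small, 0.29, 0.48, 0.34 and 0.32, and the groups did not overlap for any of these 4. Gapdh (0.25 ± 0.13, unadjusted p = 0.0848) and Ldha (0.26 ± 0.16, unadjusted p = 0.128) had values of the same sign with overlapping groups.

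Pdk1, the kinase that keeps pyruvate out of the mitochondria, had levels of -0.72, -1.06 and -0.52 in vehicle and -0.26, 0.56 and 0.07 in enarodustat (difference 0.89 ± 0.22, unadjusted p = 0.00343). Its 4 probes ranged from -0.02 to 0.89. Aldoc (aldolase C) had the largest difference of the list, with levels of -2.77, -1.36 and -0.99 in vehicle and 1.08, 2.23 and 1.39 in enarodustat (difference 3.27 ± 0.72, unadjusted p = 0.0016). The vehicle arrays were wide apart for this gene, as were those of wild type (-2.65, -1.26 and 0.20), and all enarodustat values lay above them. The distal nephron marker Slc12a3 was likewise lowest in replicate 1 of wild type (-3.0, -0.94 and 0.98) and of vehicle (-3.07, -0.27 and -0.71) and higher with enarodustat, and the part of tubule RNA in the Aldoc difference was not tested. Genes of glucose entry and the other isoforms had smaller values. Slc2a1, the glucose transporter GLUT1, had levels of 0.72, 0.97 and 1.11 against 0.97, 1.42 and 1.04 (difference 0.21 ± 0.15, unadjusted p = 0.207), Slc2a3 differed by -0.13 ± 0.22 and hexokinase Hk1 by 0.00 ± 0.20. The phosphofructokinase genes Pfkm and Pfkp differed by 0.04 ± 0.14 and 0.00 ± 0.28, against the 0.74 of Pfkl.

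**Figure D2:**
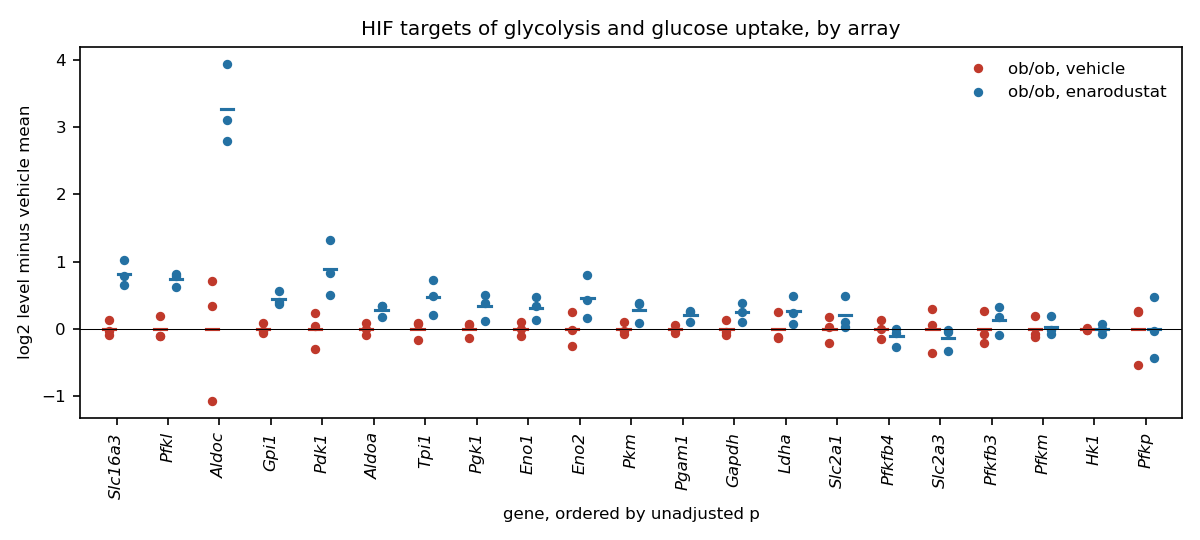
Log2 level minus the vehicle mean for the 21 tested HIF targets of glycolysis and glucose uptake, with 1 point per array (3 vehicle, 3 enarodustat) and bars at the group means, ordered by unadjusted p. From Slc16a3 to Eno1 every enarodustat point lies above every vehicle point, and Aldoc stands out with a difference of 3.27. Slc2a1, Hk1 and Pfkp at the right have overlapping groups.

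The number of glycolysis genes at an unadjusted p under 0.05 was 5 without vehicle replicate 1, without enarodustat replicate 2 or without enarodustat replicate 3, and 5 without vehicle replicate 3 and enarodustat replicate 2 together. It was 6 with the array median as the scale or with the proximal tubule markers as a covariate. With the distal nephron markers as a covariate it was 5. In the 4 ob/ob arrays of 1 slide and position number (the first number after the slide in the array barcode) it was 4. None of them was lower at that p under any of these, and the median of the list was 0.22 to 0.28 over these. The count was 11 without enarodustat replicate 1, with a median of 0.36.

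Of 40 other HIF targets, 39 were tested. Of these, 26 were higher and 13 lower, 5 had an unadjusted p under 0.05, all higher, against 3.43% of all features. The groups did not overlap for 9 higher and 2 lower, against 6.51% and 9.48%. The median was 0.07. The number at that p was 8 without wild-type replicate 3, whose values enter the fit only through the spread, 3 without vehicle replicate 3 and 3 without both arrays of extreme tubule markers. Besides Bnip3 and Mif, the 5 were Bhlhe40, Ak4 and Selenbp1. Bhlhe40, a transcriptional repressor of the clock and of hypoxia responses, had levels of -0.32, -0.89 and -0.75 in vehicle and 0.54, 0.27 and 0.58 in enarodustat (difference 1.12 ± 0.23, unadjusted p = 0.000926). Ak4, a mitochondrial adenylate kinase, had levels of -2.06, -2.35 and -3.75 against -0.57, 0.44 and -0.76 (difference 2.42 ± 0.88, unadjusted p = 0.0241), beside -2.58, -2.02 and 1.01 in wild type. Within their groups, vehicle replicate 3 was lowest, and enarodustat replicate 2 and wild-type replicate 3 were highest. The same held for Selenbp1 and for the proximal tubule median. The part of tubule RNA in the Ak4 and Selenbp1 differences was not tested. Bhlhe41, a relative of Bhlhe40, had vehicle levels from -7.02 to -4.10 and enarodustat levels from -3.99 to -2.30. It was well above background on 1 of the 3 vehicle arrays, so its fitted difference is not given. Of the 2 ob/ob groups, only enarodustat let Bhlhe41 pass the filter, so the filter itself favoured a higher value with enarodustat. Bhlhe41 is nevertheless counted among the 9 higher genes without overlap. Several widely used HIF targets had values near 0. The difference was 0.01 ± 0.13 for Bnip3l, 0.00 ± 0.17 for the histone demethylase gene Kdm3a, -0.07 ± 0.13 for Car9 (carbonic anhydrase IX) and 0.02 ± 0.17 for Fam162a. Ndrg1 (0.44 ± 0.29, unadjusted p = 0.159) was higher on all 3 enarodustat arrays, Ankrd37 (0.49 ± 0.39) overlapped, and Angptl4 (-0.17 ± 0.40) gave positive values without vehicle replicate 3. Adm, the vasodilator adrenomedullin, was lower, at 4.09, 4.07 and 4.24 against 3.97, 2.6 and 3.76 (difference -0.69 ± 0.36, unadjusted p = 0.0911), most of it from enarodustat replicate 2.

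Epas1 and Hif1a were near their vehicle levels. Epas1 (HIF-2 alpha) was at 7.75 to 7.87 in vehicle and 7.76 to 7.96 in enarodustat, and its difference of 0.04 ± 0.14 was negative under quantile normalization or array-median scaling. Hif1a had levels of 2.85, 2.81 and 3.13 against 2.75, 2.85 and 2.89 (difference -0.10 ± 0.13), and its 3 probes ranged from -0.10 to 0.41. Hif3a (HIF-3 alpha) was wide apart within groups, at -0.32, -3.64 and 0.09 in vehicle and 0.35, -1.61 and 1.15 in enarodustat (difference 1.25 ± 0.99, unadjusted p = 0.238). Replicate 2 was lowest in both groups, and the groups overlapped. Of 20 tested HIF pathway regulators, 1 was higher at an unadjusted p under 0.05, against 3.43% of all features. It was P4htm, a transmembrane prolyl hydroxylase (0.29 ± 0.12, unadjusted p = 0.0398), whose probes disagree in sign. Egln3, the hydroxylase that HIF itself induces, had levels of -2.57, -2.34 and -2.58 in vehicle and -1.93, -2.10 and -2.20 in enarodustat. All 3 enarodustat values lay above the vehicle values, with a difference of 0.42 ± 0.31 (unadjusted p = 0.206). Egln1, the main HIF hydroxylase, differed by -0.06 ± 0.12 and Vhl, which recognises hydroxylated HIF, by -0.09 ± 0.12.

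Iron uptake and erythropoietin form the other known arm of the HIF response, and erythrocyte genes are given beside them. Tfrc, the transferrin receptor, had levels of -4.27, -3.09 and -3.73 in vehicle and -2.65, -2.45 and -2.79 in enarodustat, beside -2.21, -1.13 and -1.16 in wild type. The ob/ob groups were apart (difference 1.07 ± 0.36, 2.10-fold, unadjusted p = 0.0158, adjusted p = 0.708). Its difference was 0.36 with normexp background correction and 0.49 with the distal nephron markers as a covariate. The iron importer gene Slc11a2 was lower by 0.37 ± 0.14 (unadjusted p = 0.0257), and the ferritin gene Fth1 was higher on each enarodustat array (0.18 ± 0.10, unadjusted p = 0.123). Of 15 tested iron genes 1 was higher and 1 lower at an unadjusted p under 0.05, against 3.43% and 3.59% of all features. Erythropoietin (Epo), hepcidin (Hamp) and Cybrd1 were too dim to test. Haemoglobin RNA was more abundant in the enarodustat samples on average, with Hba-a1 at 4.62, 4.35 and 5.64 in vehicle and 6.92, 5.22 and 7.66 in enarodustat. Enarodustat replicate 2 lay below vehicle replicate 3 (difference 1.73 ± 0.74, unadjusted p = 0.0448). The haem synthesis gene Alas2 had a similar difference of 1.64 ± 0.83 (unadjusted p = 0.0802), and Klf1, an erythroid transcription factor, one of -0.36 ± 0.34. Hba-a1 and Hba-a2 are near-identical copies whose probes can share signal. Of 6 tested erythrocyte genes 5 were higher, with a median difference of 1.56, and the groups did not overlap for 0 of them. The part of blood left in the samples in these differences was not tested.

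Angiogenic genes were not higher. Vegfa, which podocytes make and which maintains the glomerular endothelium, had levels of 5.05, 5.31 and 5.54 in vehicle and 4.83, 4.57 and 5.19 in enarodustat, beside 6.01 to 6.04 in wild type. Its difference was -0.44 ± 0.18 (unadjusted p = 0.0381, adjusted p = 0.708), and without both arrays of extreme tubule markers -0.18. Of 15 tested ligands and receptors, 10 were lower and 5 higher, beside 13353 lower and 10813 higher of all features. Their median was -0.11. The receptors Kdr (-0.14 ± 0.12) and Flt1 (-0.11 ± 0.13) had overlapping groups, and Tie1 was the only member with all enarodustat values above all vehicle values (0.22 ± 0.11, unadjusted p = 0.0708).

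Several inflammatory genes had lower values with enarodustat than with vehicle. Slpi, a secreted inhibitor of leukocyte proteases, had levels of -2.26, -1.96 and -1.99 in wild type, 1.49, 1.9 and 1.5 in ob/ob vehicle and 0.80, 0.03 and 0.44 in ob/ob enarodustat. The enarodustat values lay below every vehicle value and above every wild-type value (difference from vehicle -1.21 ± 0.21, 2.31-fold lower, unadjusted p = 0.000323, adjusted p = 0.377). Its second probe gave -0.19, and the mean of its probes -0.70. Il18, an inflammasome-dependent cytokine, had levels of 2.05, 2.36 and 2.52 in vehicle and 1.59, 1.11 and 1.64 in enarodustat, beside 1.78 to 1.85 in wild type. The groups did not overlap (difference -0.86 ± 0.18, 1.82-fold lower, unadjusted p = 0.00095, adjusted p = 0.504). Ccl2, the monocyte chemoattractant MCP-1, had levels of 1.80, 1.26 and 1.75 in vehicle and 0.75, 1.18 and 0.79 in enarodustat. Wild-type levels of Ccl2 were -2.82, -3.46 and -2.74. All enarodustat values were below all vehicle values by a small margin (difference -0.70 ± 0.24, 1.62-fold lower, unadjusted p = 0.0165, adjusted p = 0.708). The Ccl2 p was 0.0578 without vehicle replicate 1, 0.0525 without vehicle replicate 3, 0.0543 without enarodustat replicate 1 and 0.0515 without enarodustat replicate 3.

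Of 37 chemokine, cytokine and adhesion genes, 23 were tested and 14 were too dim, among them Il6, Il1a, Ccl7 and Cxcl2. Of the 23, 6 were lower and 2 higher at an unadjusted p under 0.05, against 3.59% and 3.43% of all features. The groups did not overlap for 5 lower and 1 higher, against 9.48% and 6.51%. The median was -0.14, and the differences ran from -1.62 to 2.06. All 6 lower genes are described here or above, but of the 2 higher genes only Cxcl12 is. The largest difference of the list in either direction, 2.06, was an increase, in a gene that is not described. By sign alone, 14 of the 23 were lower and 9 higher. Endothelial selectins were among those lower. Sele (E-selectin) had levels of -2.28, -1.56 and -1.01 in vehicle and -3.96, -2.28 and -3.46 in enarodustat (difference -1.62 ± 0.56, unadjusted p = 0.0187), where vehicle replicate 1 and enarodustat replicate 2 nearly met. Selp (P-selectin) had levels of -3.52, -3.85 and -3.20 against -4.15, -4.07 and -4.11 (-0.58 ± 0.18, unadjusted p = 0.012). The neutrophil chemokine Cxcl1 was at 2.54 to 2.75 in vehicle and at 2.42, 1.55 and 0.88 in enarodustat (-1.06 ± 0.41, unadjusted p = 0.0314), and Il1b differed by -1.28 ± 0.52 (unadjusted p = 0.0376) with overlapping groups. In the other direction, Cxcl12, which binds Cxcr4, had levels of 3.52, 3.75 and 3.52 in vehicle and 4.39, 3.97 and 4.06 in enarodustat (0.55 ± 0.16, unadjusted p = 0.00839), beside 3.78 to 4.21 in wild type. Tnf (-0.01 ± 0.18), Icam1 (-0.12 ± 0.18) and Vcam1 (0.02 ± 0.43) had overlapping groups. The number lower at that p was 4 without vehicle replicate 1 or enarodustat replicate 1, 3 without vehicle replicate 3 and 2 without enarodustat replicate 3.

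**Figure D3:**
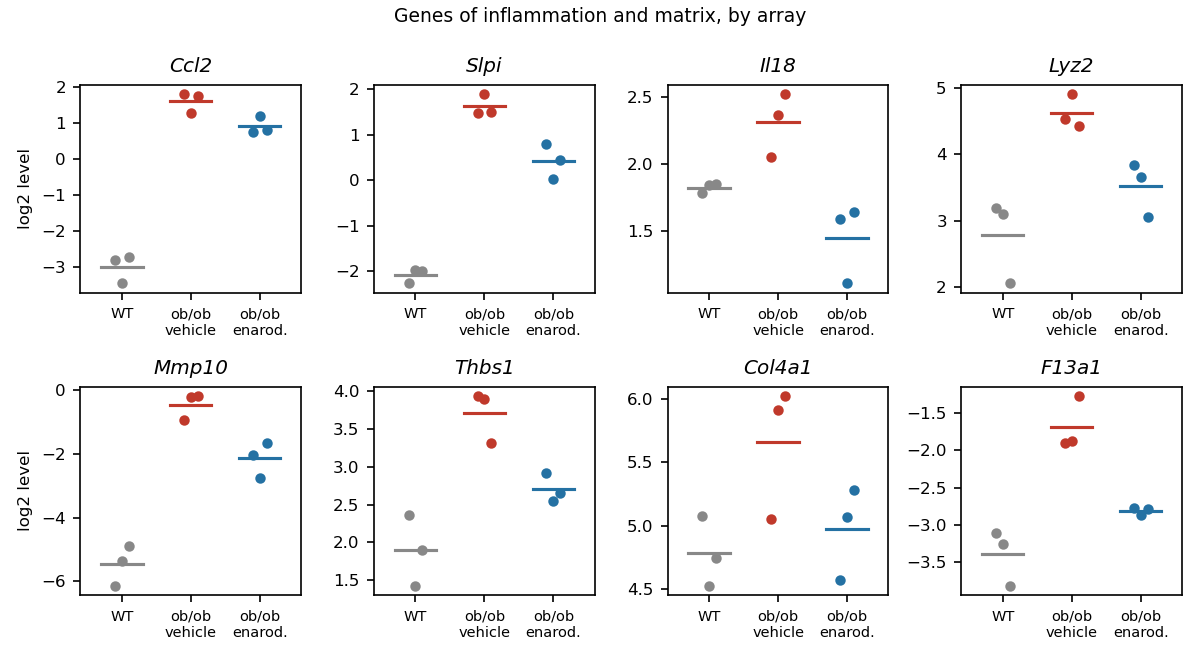
Log2 level relative to the 75th percentile of the array for 8 genes of inflammation and matrix, with 1 point per array and a line at each mean, for wild type on vehicle (WT, grey), ob/ob on vehicle (red) and ob/ob on enarodustat (blue). Each panel has its own vertical scale. Only genes with lower values with enarodustat are shown, so the shared direction of the panels follows from that choice. Fn1 (difference 0.06) and Cxcl12 (0.55) are among the genes not shown. For 7 of the 8 genes no blue point reaches a red one, the other being Col4a1.

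Macrophage genes were lower in part. Of 28 tested monocyte and macrophage markers, 24 were lower, 5 had an unadjusted p under 0.05, all lower, and the groups did not overlap for 5, all lower, against 3.59% and 9.48% of all features. The median difference was -0.33, and it was -0.13 without vehicle replicate 1, -0.16 without enarodustat replicate 3 and -0.07 with the distal nephron markers as a covariate. Lyz2, lysozyme of macrophages and neutrophils, had levels of 4.53, 4.91 and 4.43 in vehicle and 3.84, 3.66 and 3.06 in enarodustat, beside 3.19, 3.10 and 2.06 in wild type. The ob/ob groups were apart (difference -1.101 ± 0.32, unadjusted p = 0.00844), and the near-identical Lyz1, with which its probe may share signal, gave -1.14 ± 0.32. Lgals3 (galectin-3, -0.46, unadjusted p = 0.039), the growth factor receptor Csf1r (-0.35, unadjusted p = 0.0448) and Laptm5 (-0.34, unadjusted p = 0.0497) were the other 3. The defining markers were less even. Adgre1, a macrophage surface receptor, had levels of -0.10, -1.71 and -1.53 in vehicle and -1.04, -2.35 and -2.36 in enarodustat (-0.80 ± 0.49, unadjusted p = 0.141), where enarodustat replicate 1 lay above vehicle replicates 2 and 3. Cd68 differed by -0.22 ± 0.26, the value being 0.01 without vehicle replicate 1, and the C1q genes C1qa, C1qb and C1qc by -0.18, 0.01 and 0.03. The count lower at an unadjusted p under 0.05 was 3 without any 1 of wild-type replicates 2 or 3 or the vehicle replicates, and 2 without enarodustat replicate 2 or enarodustat replicate 3. In the 4 ob/ob arrays of 1 slide and position number it was 3 lower and 3 higher, with a median of 0.02. In bulk RNA of this kind, fewer cells of a type and less RNA per cell cannot be told apart. Whether the tubule and blood RNA of the samples has a part in these differences was not tested beyond the alternatives given.

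Among complement genes, surface regulators had lower values. Cd55, which inactivates complement convertases, had levels of 2.92, 3.00 and 3.07 in vehicle and 2.35, 1.89 and 2.68 in enarodustat, beside 3.54 to 3.72 in wild type. No value overlapped (-0.69 ± 0.19, unadjusted p = 0.0055), and the difference was -0.44 without both arrays of extreme tubule markers. Cd59a, which blocks the membrane attack complex, gave -0.41 ± 0.16 (unadjusted p = 0.0341) and the anaphylatoxin receptor gene C5ar1 -0.71 ± 0.25 (unadjusted p = 0.0209). C5ar1 was well above background on 2 of the 3 enarodustat arrays and on 0 wild-type arrays. It passed the filter through the vehicle group alone, so the filter itself favoured a lower value with enarodustat. Cd55, Cd59a and C5ar1 were the 3 of 19 tested complement genes with an unadjusted p under 0.05, all lower, against 3.59% of all features. The count was 1 without vehicle replicate 3, enarodustat replicate 2 or enarodustat replicate 3. F13a1, the coagulation factor XIII subunit of resident macrophages, had levels of -1.90, -1.88 and -1.28 in vehicle and -2.78, -2.87 and -2.79 in enarodustat (-1.13 ± 0.22, unadjusted p = 0.000733, adjusted p = 0.504), beside -3.81 to -3.11 in wild type. With normexp the F13a1 difference was -0.64.

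Matrix genes were lower in a subset, and fibronectin was not. Mmp10, the metalloproteinase stromelysin-2, had levels of -0.95, -0.23 and -0.20 in vehicle and -2.04, -2.75 and -1.66 in enarodustat. The groups did not overlap (-1.69 ± 0.38, 3.22-fold lower, unadjusted p = 0.0018, adjusted p = 0.598), and Mmp10 was not well above background in wild type. With normexp its difference was -1.11. Mmp3, stromelysin-1, followed with 0.90, 1.62 and 1.72 against 0.13, 0.53 and 0.44 (-1.05 ± 0.32, unadjusted p = 0.00944), beside -2.32 to -1.16 in wild type. Thbs1, thrombospondin-1, an activator of latent TGF-beta, had levels of 3.93, 3.89 and 3.31 in vehicle and 2.92, 2.55 and 2.65 in enarodustat (-1.01 ± 0.26, 2.01-fold lower, unadjusted p = 0.00391), beside 1.43 to 2.36 in wild type. Col8a1, a short-chain collagen of the subendothelium, was at 4.95 to 5.03 in vehicle and 4.18 to 4.6 in enarodustat (-0.62 ± 0.17, unadjusted p = 0.00593), beside 2.73 to 3.31 in wild type. For these 4 genes each enarodustat value lay between the wild-type and the vehicle values.

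Of 53 tested genes of extracellular matrix and TGF-beta, 7 had an unadjusted p under 0.05, all lower, against 3.59% of all features. The groups did not overlap for 10 lower and 1 higher, against 9.48% and 6.51% of all features, and the median was -0.13. Basement membrane genes gave 2 of the 7. Col4a1, the chain shared by most collagen IV, had levels of 5.05, 5.91 and 6.02 against 4.57, 5.07 and 5.28 (-0.68 ± 0.29, unadjusted p = 0.0451). Its groups overlapped, and its p was over 0.05 without any 1 of 6 arrays, with values up to 0.156. Nid2 (nidogen-2) was at 2.31 to 2.6 against 1.6 to 2.26 (-0.55 ± 0.22, unadjusted p = 0.0333). Fn1, fibronectin, had levels of 2.76, 2.85 and 1.84 in vehicle and 2.40, 2.69 and 2.54 in enarodustat (0.06 ± 0.31, unadjusted p = 0.852), and the value was -0.26 without vehicle replicate 3. The number of matrix genes lower at that p was 4 without enarodustat replicate 1 and 3 without both arrays of extreme tubule markers. It was 11 in the 4 arrays of 1 slide and position number, and 4 with either tubule list as a covariate. With the distal nephron covariate 3 were higher and the median was 0.06, and without enarodustat replicate 2 the median was -0.06.

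Podocyte markers were slightly lower in most cases. Of 36 tested, 32 were lower, 4 had an unadjusted p under 0.05, all lower, and the groups did not overlap for 8, all lower, against 3.59% and 9.48% of all features. The median difference was -0.22. Enpep, aminopeptidase A, which degrades angiotensin II on the podocyte surface, had levels of 3.45, 3.58 and 3.72 in vehicle and 3.02, 2.44 and 3.22 in enarodustat, beside 4.14 to 4.41 in wild type. Its difference was -0.69 ± 0.20 (unadjusted p = 0.00722) and -0.40 without both arrays of extreme tubule markers. The collagen IV chains of the mature filter, Col4a4 (-0.29 ± 0.12, unadjusted p = 0.0392) and Col4a5 (-0.34 ± 0.13, unadjusted p = 0.0292), and Foxd1 (-0.50 ± 0.20, unadjusted p = 0.0375) were the others. The slit diaphragm genes differed less. Nphs1 (nephrin) had levels of 3.46, 3.47 and 3.77 in vehicle and 3.45, 2.80 and 3.64 in enarodustat, beside 4.41 to 4.81 in wild type. Replicate 2 alone was low among the enarodustat arrays, and the difference of -0.27 ± 0.22 was 0.08 without both arrays of extreme tubule markers. Wt1 showed the same single low array, at 5.32, 5.36 and 5.37 against 5.10, 4.53 and 5.34 (-0.36 ± 0.21, unadjusted p = 0.123). That array had the highest proximal tubule markers of the 6. The number of podocyte genes at an unadjusted p under 0.05 was 7 without wild-type replicate 3, 2 without vehicle replicate 2, 1 without vehicle replicate 3 or enarodustat replicate 2, and 8 without enarodustat replicate 3. It was 8 with the array median as the scale and 1 with the proximal tubule covariate. Without enarodustat replicate 2 the median of the list was -0.08.

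Endothelial and mesangial markers had medians near 0. Of 30 tested endothelial markers, 1 had an unadjusted p under 0.05, Lpl, lipoprotein lipase, with 4.22, 5.03 and 4.88 in vehicle and 3.92, 3.86 and 4.0 in enarodustat (-0.78 ± 0.26, unadjusted p = 0.0149). The 6 probes of Lpl disagreed, from -0.81 to 0.19. Emcn (-0.09 ± 0.10), Cdh5 (-0.01) and Ehd3 (-0.02) had overlapping groups, and the list median was 0.02. Among 24 mesangial and smooth muscle markers, 1 had an unadjusted p under 0.05, the adhesion molecule Mcam (-0.29 ± 0.11, unadjusted p = 0.0341), and the median was -0.08. These counts of 1 lower gene in each list stand beside 3.59% of all features lower at that p. With the distal nephron markers as a covariate the mesangial median was 0.31, with 4 genes higher and 0 lower at that p. Of 10 parietal epithelial markers, 5 were higher and 5 lower, with differences from -0.79 to 1.67 and a median of -0.07. At an unadjusted p under 0.05, 2 were lower and 0 higher, against 3.59% and 3.43% of all features. Without vehicle replicate 3 these counts were 0 lower and 3 higher. Of the 2 lower genes, Cd44, which activated parietal cells express, was at -2.18, -1.95 and -1.82 against -2.72, -2.51 and -3.08 (-0.79 ± 0.27, unadjusted p = 0.0173). Its wild-type levels were -4.37 to -3.32. The other, Cldn1, differed by -0.69 ± 0.27 (unadjusted p = 0.0298).

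Tubule genes were the list with the largest values. All 17 distal nephron markers were higher with enarodustat, 6 of them at an unadjusted p under 0.05 against 3.43% of all features, and the groups did not overlap for 9 against 6.51%. The median difference was 1.94, and it was 1.11 without vehicle replicate 1. Pvalb, parvalbumin of the distal convoluted tubule, had levels of -0.08, 2.53 and 1.82 in vehicle and 4.22, 4.93 and 4.56 in enarodustat (3.15 ± 0.82, unadjusted p = 0.00444). Slc12a3, the thiazide-sensitive cotransporter of the same segment, had levels of -3.07, -0.27 and -0.71 against 1.37, 2.33 and 2.24 (3.33 ± 1.01, unadjusted p = 0.0101). Umod, uromodulin of the thick ascending limb, was at 1.1, 3.97 and 3.83 against 4.92, 5.86 and 5.45 (2.44 ± 1.02, unadjusted p = 0.0423). For all 3, vehicle replicate 1 was lowest and all enarodustat arrays were above all vehicle arrays. The number of distal genes at that p was 4 without wild-type replicate 2 or enarodustat replicate 1, 2 without vehicle replicate 1, enarodustat replicate 2 or enarodustat replicate 3, and 12 without vehicle replicate 3. Proximal tubule markers were also higher in 32 of 33 cases, with a median of 1.47, but the median was 0.60 without vehicle replicate 3, 0.57 without enarodustat replicate 2 and -0.30 without both. In that list 1 gene had an unadjusted p just under the threshold, Ggt1 (2.27 ± 1.0, unadjusted p = 0.05). For that list the spread lay within the groups, as in Slc34a1, at 0.86, 1.72 and -2.49 in vehicle and 0.69, 3.99 and 0.72 in enarodustat.

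**Figure D4:**
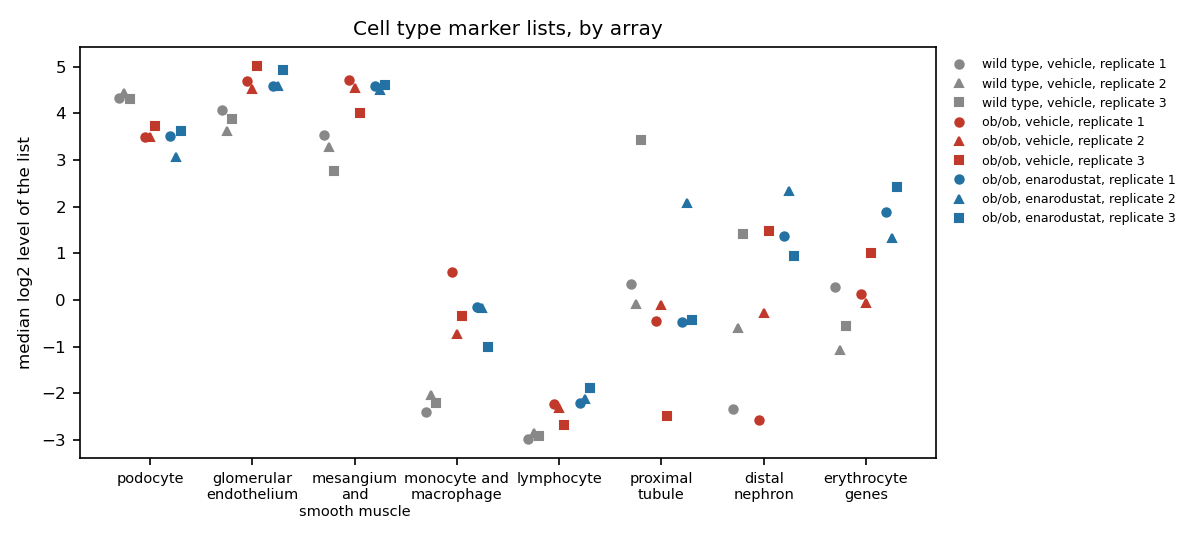
Median log2 level of 8 cell type marker lists on each of the 9 arrays (colour for group, symbol for replicate). Podocyte, endothelial and mesangial medians lie between 2.77 and 5.02. The proximal tubule median ranges from -2.49 to 3.42 and the distal nephron median from -2.57 to 2.33, with wide spread inside groups, and the erythrocyte median is highest in the 3 enarodustat arrays.

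Some genes of mitochondria and fuel use had higher values with enarodustat, as did the distal nephron markers. Ppargc1a, PGC-1 alpha, the coactivator of mitochondrial biogenesis, had levels of -1.86, -1.38 and -1.13 in vehicle and -0.36, 0.98 and 0.27 in enarodustat (1.75 ± 0.46, 3.36-fold, unadjusted p = 0.00443), beside -0.84, -0.36 and 0.79 in wild type. Fabp3, a fatty acid binding protein, was at -1.11, 0.79 and 0.32 against 2.28, 3.20 and 2.67 (2.72 ± 0.75, unadjusted p = 0.00604). With the distal nephron markers as a covariate these differences were 0.85 and 1.14, and those of Pvalb and Slc12a3 were 1.47 and 1.18. Of 29 genes of fatty acid oxidation, 4 were higher and 0 lower at an unadjusted p under 0.05 against 3.43% and 3.59% of all features, the others being Cpt1b (1.44 ± 0.50) and Ppara (1.01 ± 0.37), and the list median was 0.12. The count was 7 without enarodustat replicate 1 and 2 without enarodustat replicate 2. Of 38 oxidative phosphorylation genes, 34 were higher by small amounts, with a median of 0.16. Only Cox4i1 had an unadjusted p under 0.05 (0.34 ± 0.13, unadjusted p = 0.0269), against 3.43% of all features higher at that p. In the list 6 genes had groups that did not overlap, all higher, against 6.51% of all features.

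Of 20 tested genes of leptin, insulin and adiponectin signalling, 2 had groups that did not overlap, Slc2a4 and Insr, against 6.51% of all features for higher values. At an unadjusted p under 0.05, 3 were higher and 0 lower, against 3.43% and 3.59% of all features. Slc2a4, the insulin-regulated glucose transporter GLUT4, had levels of 2.08, 1.76 and 2.05 in vehicle and 2.49, 2.44 and 2.74 in enarodustat (0.60 ± 0.17, 1.51-fold, unadjusted p = 0.00685), beside 1.13 to 1.62 in wild type. Insr, the insulin receptor, was at -1.52, -1.82 and -1.41 against -0.91, -1.22 and -1.05 (0.52 ± 0.18, unadjusted p = 0.0183, and 0.32 with normexp). The median over 20 genes of leptin, insulin and adiponectin signalling was -0.01. Of 28 NRF2 targets, the oxidant-defence genes, 1 was higher and 0 lower at an unadjusted p under 0.05, against 3.43% and 3.59% of all features. It was Nqo1 (0.57 ± 0.20, unadjusted p = 0.0209), and the median of the list was 0.02. Among 15 oxidant-producing enzymes 1 was higher and 1 lower at that p, against the same shares of all features. They were Duox2, higher (0.67 ± 0.23, unadjusted p = 0.0179), and Rac2, lower (-0.34 ± 0.15, unadjusted p = 0.0473).

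Interferon response genes were higher in 31 of 34 tested cases, 5 of them at an unadjusted p under 0.05 against 3.43% of all features, with a median of 0.36. Enarodustat replicate 2 was the highest array. Irf1, a transcription factor that interferon induces, was at 3.72 to 3.79 against 3.91, 4.56 and 4.14 (0.45 ± 0.17, unadjusted p = 0.0288). Without enarodustat replicate 2 the median was 0.12 and no gene had an unadjusted p under 0.05, and without enarodustat replicate 3 there were 12. Without vehicle replicate 2 or vehicle replicate 3 there was 1, with the proximal tubule covariate 0 and with the array median as the scale 3. Without both arrays of extreme tubule markers there were 0, and the median was -0.02. All 16 genes of antigen presentation were higher with a median of 0.23 and none had an unadjusted p under 0.05. Without vehicle replicate 1 the median was 0.51 with 3 genes at that p. Without enarodustat replicate 1 there were 3, and without vehicle replicate 2 there was 1. In the 4 arrays of 1 slide and position number the median was 0.56 with 6 genes. Without both arrays of extreme tubule markers it was 0.09. Tap1, the peptide transporter, again had its high value in enarodustat replicate 2 (1.11, 2.75 and 1.51 against 1.03 to 1.19 in vehicle).

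**Figure D5:**
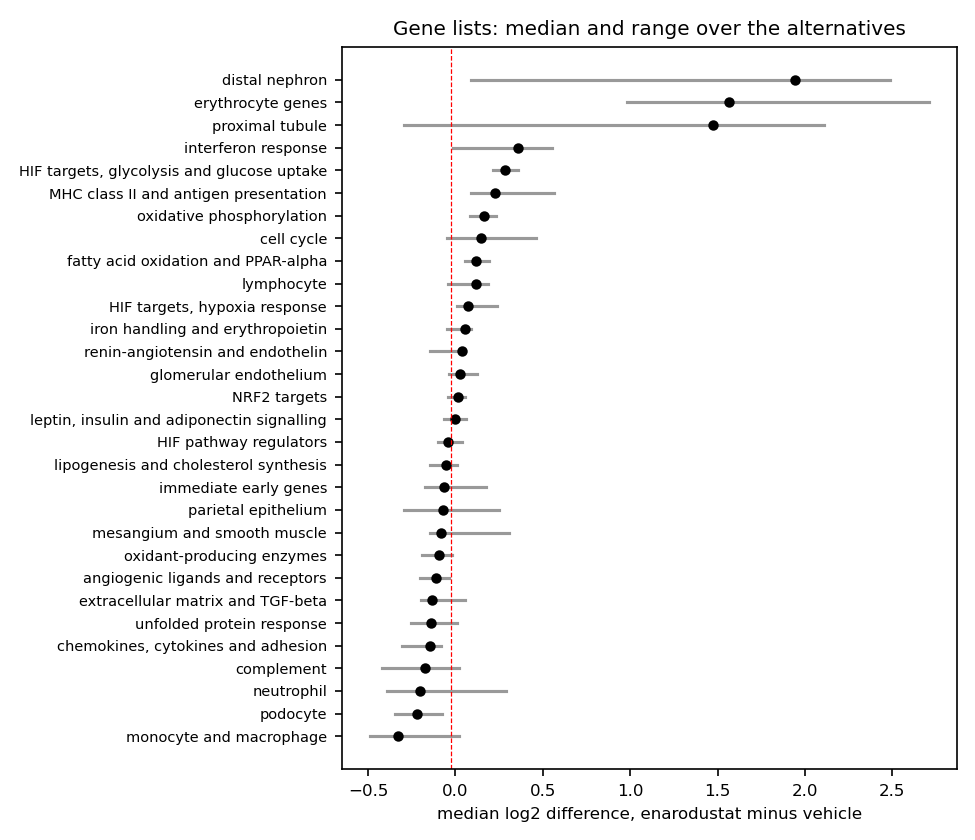
Median log2 difference (enarodustat minus vehicle) of each of 30 gene lists (black point), with the range over the alternative settings (grey bar), and the median of all features (-0.03) as a dashed line. Distal nephron, erythrocyte and proximal tubule lists lie farthest to the right with wide bars, the glycolysis list has a narrow bar to the right of the line (0.22 to 0.36), and the macrophage and podocyte lists lie farthest to the left.

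The genes with the smallest p values of all were mostly outside these lists. Hdac11, a class IV histone deacetylase, had levels of -5.22, -4.50 and -4.88 in vehicle and -3.47, -2.90 and -2.95 in enarodustat, beside -3.92 to -3.68 in wild type. The groups were far apart for so dim a gene (1.76 ± 0.22, 3.39-fold, unadjusted p = 2.53e-05, adjusted p = 0.204), which was well above background on 2 of the 3 vehicle arrays. With normexp background correction the difference was 0.42. Ptgfr, the prostaglandin F receptor, was at -1.22 to -1.18 in vehicle and -0.19, 0.05 and 0.19 in enarodustat (1.21 ± 0.18, unadjusted p = 0.000117, adjusted p = 0.377), and its 2 probes gave 1.21 and 0.40. Lnx1, a ubiquitin ligase, gave 2.29 ± 0.39 (unadjusted p = 0.000293) and Cadps2, an activator of vesicle release, 1.27 ± 0.22 (unadjusted p = 0.000297). With normexp these were 0.84 and 0.82. Among lower genes, Wsb2 was at 4.23 to 4.33 in vehicle and 3.65 to 3.89 in enarodustat (-0.55 ± 0.11, unadjusted p = 0.000801), beside 4.56 to 4.72 in wild type. Ccnj, a cyclin, was at -2.87 to -2.43 against -3.71 to -3.37 (-0.86 ± 0.15, unadjusted p = 0.000294). Fer1l6 passed the filter through the vehicle group alone, so the filter itself favoured a lower value with enarodustat. It was not well above background on any enarodustat array and was at least 1.4-fold lower. That bound sets the vehicle mean against the lowest signal well above background on each enarodustat array, or the probe's own where higher.

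The probes of the genes above that carried the smallest p values map, in build mm9 as in the files, to chromosome 7 from 146082760 to 146082819 for Bnip3, chromosome 10 from 75322094 to 75322153 for Mif and chromosome 11 from 120820023 to 120820082 for Slc16a3. The Slpi probe maps to chromosome 2 from 164179849 to 164179908, that of Ccl2 to chromosome 11 from 81850650 to 81850709 and that of Hdac11 to chromosome 6 from 91124085 to 91124144. The sources used here do not give the exon or untranslated region of a probe.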

How the data were processed

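The deposited scanner files give spot intensity, which Agilent Feature Extraction 11.5.1.1 had background-subtracted, per the file headers. Arrays were not scaled to each other in them. limma is named without a role in the submitters' processing notes. The deposited value table holds the authors' log2 values. Set against the scanner files, each column was the log2 processed signal minus a constant near the array's 75th percentile, with no centring and no sign turned. Its column medians were -3.10 to -2.93. The RNA of each sample was on 1 array, and groups follow the labels.

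Control spots (3671 of 62976) and outlier spots were left out, and 32 probes left without a spot on some array were removed. Values are log2 of the processed signal minus the array's 75th percentile. A probe was kept where all arrays of any 1 group had it well above background (36671 probes), and of these a gene keeps the one with the highest mean, giving 24166 features. Of these, 227 features passed through the vehicle group alone and 139 through the enarodustat group alone. Names come from a RefSeq table of GRCm38.p6 (33881 probes by accession, 9468 by symbol, 490 by synonym, 1575 as in the files, 11191 unnamed). limma 3.58.1 in R 4.3.3 fitted 3 groups on 9 arrays, with Benjamini-Hochberg adjustment over all features. The fit was tested on simulated data. An exact permutation test of 3 arrays against 3 cannot give a p below 0.1, so none is reported.

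Named genes are the 12 with the smallest p in each direction among groups that do not overlap, 20 anchor genes and the 2 smallest p of each list. Other list members were named after their values were seen. The gene groups and lists were chosen with earlier results of these data known. Alternatives were other scalings, filters, fits, blocks and left-out arrays. The 4 arrays of 1 slide and position number were chosen after seeing the data. So were leaving out both arrays of extreme tubule markers and the distal nephron covariate.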

Additional observations from a re-analysis of the deposited data

How the results depend on the processing

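No feature passed the adjusted threshold under any of 26 alternatives, and the smallest adjusted p ranged from 0.0576 (without enarodustat replicate 3, the same fit as with the slide as a block) to 0.881. The number at an unadjusted p under 0.05 was 1166 to 2252 when single arrays were left out and 1028 without both arrays of extreme tubule markers. With the replicate number as a block it was 1637, with 0 called. Same-numbered samples deviated together with r of 0.13, 0.27 and -0.04, and differently numbered ones with r of -0.23 to 0.15. With 3 samples a group, these values cannot decide whether the numbers pair the samples. Of 2340 values of named genes under alternatives, 2317 kept their direction and 23 in 9 genes had the opposite sign; the cause was not tested. Epas1 was -0.05 with quantile normalization, -0.049 with normexp, -0.024 with the array median, and -0.008 to 0.089 without single arrays (negative without vehicle replicate 3 or enarodustat replicate 1). Fn1 was -0.003 with the array median, -0.023 with array weights, -0.335 without both arrays of extreme tubule markers, and -0.262 to 0.243 without single arrays (negative without vehicle replicate 3 or enarodustat replicate 2). With the mean of a gene's probes Hif1a was 0.136 and Atf6 0.032, and Hif1a was -0.159 to 0.002 without single arrays (positive without vehicle replicate 3). Angptl4 was 0.29 with the proximal tubule covariate, 0.34 without both arrays, 0.114 with the distal nephron covariate and -0.458 to 0.211 without single arrays (positive without vehicle replicate 3). Cd68 was 0.171 in the 4 arrays of 1 slide and position number and 0.202 with the distal covariate. Without single arrays Cd68 was -0.392 to 0.005 (positive without vehicle replicate 1). Without both arrays Nphs1 was 0.078 and Slc5a12 -0.033, and with the distal covariate Egln1 was 0.042. Signal over background limits dim genes, among others Bhlhe41, Hdac11, Agtr2, C5ar1 and Fer1l6.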

Other observations

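Proliferation and stress genes were not described above. Of 28 tested cell cycle genes, 24 were higher with enarodustat by small amounts (median 0.15), and the median was -0.05 without enarodustat replicate 3. Ccne1, the cyclin that drives entry into S phase, had levels of -2.28, -2.07 and -2.31 in vehicle and -1.58, -1.88 and -1.23 in enarodustat (0.65 ± 0.19, unadjusted p = 0.00795 in limma), with no overlap, and a difference of 0.35 with normexp. Rrm2, a ribonucleotide reductase subunit, differed by 0.54 ± 0.20 (unadjusted p = 0.0263). Of 24 genes of the unfolded protein response 17 were lower, with a median of -0.14 and none at an unadjusted p under 0.05. That median was -0.005 without enarodustat replicate 2 and -0.26 without enarodustat replicate 1, with 2 lower at that p. Immediate early genes, which tissue handling can raise, had a median of -0.07 over 22 genes, with none at that p, and Dusp1 was at 5.64 to 5.77 in vehicle and 5.27 to 5.56 in enarodustat.

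Among lipid genes, Dgat2, which makes triglyceride, was at 0.61, 0.05 and -0.46 in vehicle and 0.86, 1.76 and 0.88 in enarodustat (1.102 ± 0.45, unadjusted p = 0.0377), while Idi1 of the cholesterol pathway was lower by 0.44 ± 0.15 (unadjusted p = 0.0189). Agtr2, an angiotensin receptor, differed by -0.40 ± 0.15 (unadjusted p = 0.0282) and was well above background on 2 of the 3 enarodustat arrays. Lymphocyte markers had a median of 0.12 over 14 genes, and Cd3d, a T cell receptor chain, was higher on each enarodustat array (0.55 ± 0.26, unadjusted p = 0.0671). Neutrophil markers had a median of -0.21 over 9 genes, and it was 0.15 without vehicle replicate 3 and 0.29 without enarodustat replicate 3. None of these passed an adjusted p of 0.05.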
